A study of Mus musculus with 29 samples.

Results

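Genes that write, maintain or erase DNA methylation were followed through neural differentiation of mouse embryonic stem cells: Dnmt1, Uhrf1, Dnmt3a, Dnmt3b, Dnmt3l, Tet1, Tet2 and Tet3. They were chosen by symbol, as array entries whose only annotated gene is one of these 8, and they are 8 of the 30142 genes that the array names in this way. Each of the 8 has 1 entry, and each passed the filter on low values that left 22063 genes for testing. The study compared cells labelled wild type (WT) with cells labelled ERb knockout (BERKO), in which the estrogen receptor beta gene Esr2 is the stated target. Both genotypes were profiled as embryonic stem cells (mESC) and as neural precursor cells (NPC). They were also profiled at the mDPC stage, labelled as midbrain neural precursors, and at the MN stage, labelled as matured midbrain neurons. At the 3 neural stages, some cultures of each genotype received 0.5 nM LY3201, an agonist selective for estrogen receptor beta. The labels give the treatment as lasting 4 days in NPC and mDPC against a DMSO vehicle, and do not give its length at the MN stage. There were 29 arrays in 14 groups, with 2 arrays in every group except untreated BERKO MN, which had 3. All cultures were feeder-free. The labels do not say how many stem cell lines stand behind each genotype, so a genotype difference and a difference between lines cannot be told apart.

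DNA methylation in mammals is a methyl group on cytosine, mostly where a C is followed by a G (CpG). Dnmt1 copies the pattern onto the new strand after replication, and Uhrf1 reads the hemimethylated site and brings Dnmt1 to it. Dnmt3a and Dnmt3b place methyl groups at sites that had none, and Dnmt3l has no catalytic activity of its own but stimulates both. Tet1, Tet2 and Tet3 oxidise the methyl group, which can then be lost at replication or removed by base excision repair. Stem cells in culture are known for high Dnmt3b, Dnmt3l, Tet1 and Tet2, and neural cells for Dnmt3a and Tet3.

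Values are log2 array signals, and a difference of 1 is a doubling. The array's 5222 negative control entries had a 95th percentile of 7.35 to 7.66 in mESC arrays, 7.15 to 7.46 in NPC, 7.15 to 7.34 in mDPC and 6.63 to 6.94 in MN. A gene under that level in every array of a group was not well above background there. A fitted log2 difference against such a group is no measured fold, and the fold is then given only as a bound against the control level of those arrays ("at least N-fold"), or not at all where both groups lay below it or the bound came to under 1. Replicate arrays correlated at Pearson's r of 0.9944 to 0.9985 across the tested genes. The 2 BERKO mESC arrays carry 1 number between them in their titles, and so do the 2 LY3201-treated WT NPC arrays; each pair may come from 1 culture. Esr2 read 3.21 to 3.47 in the 14 arrays labelled WT and 3.8 to 4.46 in the 15 labelled BERKO. That order goes against the labels, although every value lies near the negative controls and the labels do not give the deleted part. The genotype names below are therefore those of the labels. Differences were tested with limma in 1 fit over all arrays, and a gene is said to have risen or fallen where its Benjamini-Hochberg adjusted p over all 22063 genes was under 0.05.

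The regulatory sequence of the maintenance pair carries a shared word. Promoter windows from RefSeq (GRCm38.p6) were available for all 8 genes, 15 windows in all, and the 250 bases before each start were searched on both strands for the E2F-type words TTTGGCGC, TTTCCCGC, TTTGGCGG and TTTCGCGC. E2F factors regulate genes used in DNA replication. Only 2 of the 15 windows held such a word, 1 of Dnmt1 and 1 of Uhrf1, and it was TTTCGCGC in both. Across 32851 windows of 27025 genes, 1.96% held any of the 4 words. The Dnmt1 window with the word held 26 CpG and the Uhrf1 window 30, where the median window held 6. How often windows equally rich in CpG hold such a word was not tested. The stretches are shown, 5′ to 3′ on the strand of the gene, because these 2 genes moved with the replication genes described further on; capitals mark the word, which in Dnmt1 lies on the opposite strand.
Dnmt1, minus strand, chr9:20952824-20952853: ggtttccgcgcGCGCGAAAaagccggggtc
Uhrf1, plus strand, chr17:56304117-56304146: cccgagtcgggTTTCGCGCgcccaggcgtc
The word spans positions -219 to -212 from the annotated start in Dnmt1 and -185 to -178 in Uhrf1. Both genes have further starts, 3 windows for Dnmt1 and 2 for Uhrf1, and the array does not tell which start was used. A match is a description of letters, not of a bound site.

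The windows also differed in CpG content. It is shown because Dnmt3b and Dnmt3l both fell below the negative controls in the neural arrays. Tet2 fell as well, but stayed above the controls in all 29 arrays. The 100 bases before the start are printed with each CpG in capitals.
Dnmt3b, plus strand, chr2:153649349-153649448: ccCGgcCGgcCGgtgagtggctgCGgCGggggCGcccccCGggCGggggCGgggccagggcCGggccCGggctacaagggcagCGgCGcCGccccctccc
Dnmt3l, plus strand, chr10:78042187-78042286: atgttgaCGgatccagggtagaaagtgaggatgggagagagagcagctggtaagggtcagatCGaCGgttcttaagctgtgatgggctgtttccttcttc
Tet2, minus strand, chr3:133544391-133544490: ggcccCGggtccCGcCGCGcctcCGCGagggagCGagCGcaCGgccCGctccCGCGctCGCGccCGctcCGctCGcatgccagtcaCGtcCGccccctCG
These stretches hold 14, 3 and 20 CpG. Over 250 bases the Tet2 window held 51 CpG, and 99.9% of all windows held fewer. The Dnmt3b window held 21, the 3 Dnmt3l windows held 3 to 5, and the median window of the genome held 6. So the pair of genes that left the measurable range together had CpG-rich and CpG-poor starts.

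From mESC to NPC, 7 of the 8 fell and Tet3 rose, in WT and in BERKO alike. Across all genes the same step had 27.9% higher and 35% lower in WT, and 27.7% higher and 35.9% lower in BERKO. The median difference of the 8 was -3.99 in WT and -3.7 in BERKO, against -0.04 and -0.1 over all genes tested. The direction of every call was the same in both genotypes.

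**Figure D1:**
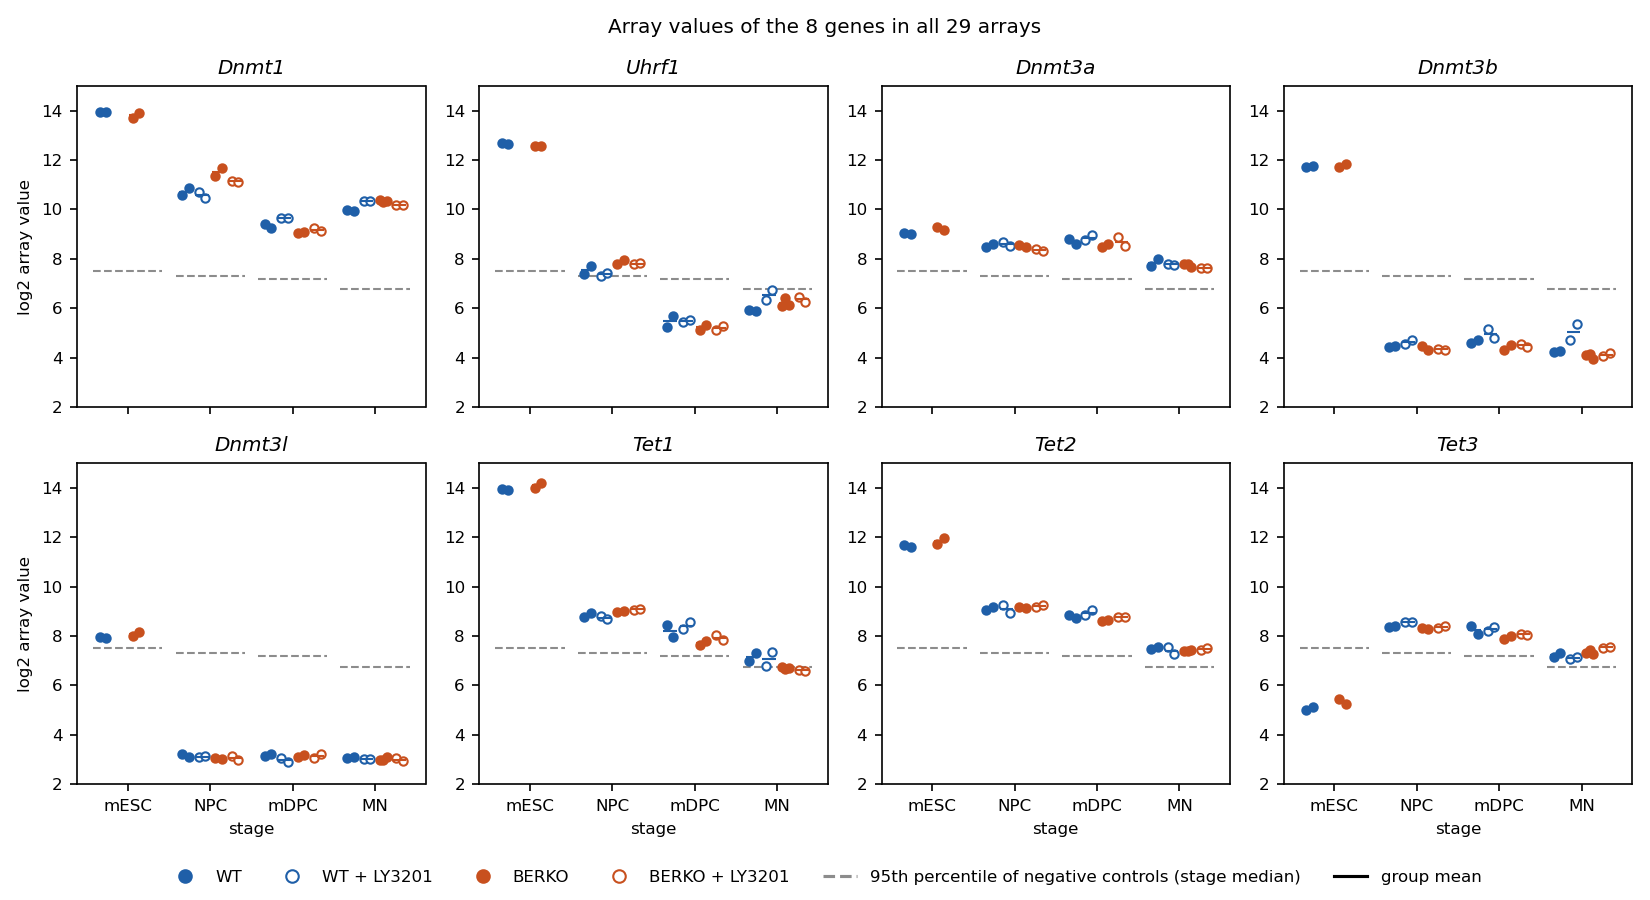
Log2 array value (vertical axis) of each of the 8 genes at the 4 stages (horizontal axis) in all 29 arrays; each point is an array, short lines are group means, blue is WT, orange is BERKO, open points are LY3201-treated, and dashed lines are the stage median of the negative controls' 95th percentile. Dnmt3b and Dnmt3l lie below the dashed line in all 25 neural arrays, and Tet3 lies below it only in the 4 mESC arrays.

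Among the maintenance genes, Dnmt1 read 13.95 and 13.94 in the WT mESC arrays and 13.7 and 13.92 in the BERKO mESC arrays. In untreated NPC it read 10.57 and 10.87 in WT and 11.34 and 11.67 in BERKO. No NPC array came near a stem cell array, and the BERKO NPC arrays lay above the WT ones. The difference from mESC to NPC was -3.22 ± 0.11 (SE, 2 arrays against 2) in WT, a 9.34-fold fall with adjusted p = 1.36e-15. In BERKO it was -2.3 ± 0.11, a 4.93-fold fall with adjusted p = 2.86e-13. Dnmt1 stayed above the negative controls in every one of the 29 arrays.

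Dnmt1 then fell further and came part of the way back. Untreated mDPC arrays read 9.41 and 9.27 in WT and 9.06 and 9.08 in BERKO. Untreated MN arrays read 9.96 and 9.93 in WT and 10.4, 10.32 and 10.35 in BERKO. The mDPC arrays were thus the lowest of the series in both genotypes. From NPC to mDPC the difference was -1.38 ± 0.11 in WT (adjusted p = 8.49e-09) and -2.44 ± 0.11 in BERKO (adjusted p = 1.12e-12). From mDPC to MN it was 0.61 ± 0.11 in WT (adjusted p = 0.00014) and 1.29 ± 0.1 in BERKO (adjusted p = 1.68e-09). Ordered by their means, the groups ran from mESC through BERKO NPC, WT NPC, MN and mDPC. Neighbours whose arrays overlapped were untreated and treated WT NPC, and untreated BERKO MN and treated WT MN.

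Uhrf1 fell with Dnmt1 on leaving the stem cell state. It read 12.69 and 12.67 in WT mESC and 12.59 and 12.58 in BERKO mESC. Untreated NPC arrays read 7.4 and 7.72 in WT and 7.78 and 7.96 in BERKO, near the negative control level. All 17 mDPC and MN arrays were below that level, with 5.13 to 5.68 in mDPC and 5.88 to 6.74 in MN. From mESC to NPC Uhrf1 fell by 5.12 ± 0.15 in WT (adjusted p = 1.25e-16) and by 4.71 ± 0.15 in BERKO (adjusted p = 4.54e-16). Against MN, the mESC level was at least 56.2-fold higher in WT and at least 58.8-fold higher in BERKO, each bound set against the negative control level of the MN arrays. Between NPC and mDPC it passed in both genotypes (adjusted p = 1.83e-09 and 3.56e-11), and as all mDPC arrays and 1 of the 2 WT NPC arrays lay below the controls, the NPC level can only be bounded as at least 1.22-fold higher in WT and at least 1.62-fold higher in BERKO. The rise from mDPC to MN was 0.44 ± 0.15 in WT (adjusted p = 0.0216) and 0.98 ± 0.14 in BERKO (adjusted p = 5.16e-06), all of it below the negative control level, so no fold is given. The WT rise lost its call without mDPC WT replicate 1 (0.23, adjusted p = 0.306), without MN WT replicate 1 (0.42, adjusted p = 0.092), without MN WT replicate 2 (0.47, adjusted p = 0.06) and in a fit of the compared groups alone (adjusted p = 0.0952).

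The de novo enzyme Dnmt3b and its cofactor Dnmt3l left the measurable range together. Dnmt3b read 11.73, 11.77, 11.72 and 11.86 in the 4 mESC arrays and 3.95 to 5.37 in the 25 neural arrays. Dnmt3l read 7.95, 7.9, 7.99 and 8.14 in mESC and 2.91 to 3.22 in the neural arrays. No neural array of either gene rose above the negative controls. Dnmt3b was therefore at least 19.6-fold higher in mESC than in NPC in WT and at least 21.8-fold higher in BERKO. For Dnmt3l the bounds were 1.38-fold and 1.65-fold, since its mESC level was itself close to the control level. The fitted differences were -7.31 ± 0.15 and -7.4 ± 0.15 for Dnmt3b, and -4.76 ± 0.08 and -5.02 ± 0.08 for Dnmt3l, in WT and BERKO. A further entry, Gm14490, which RefSeq names as a Dnmt3b pseudogene or Dnmt3c, is a near copy of Dnmt3b. It read 7.94 to 8.27 in mESC and 3.92 to 4.84 in the neural arrays, and how far probes of the 2 genes share signal was not tested.

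Dnmt3a changed least of the 8 on leaving the stem cell state. It read 9.04 and 8.99 in WT mESC, 9.31 and 9.15 in BERKO mESC, and 8.33 to 8.67 over the 8 NPC arrays. The fall was 0.46 ± 0.11 on the log2 scale in WT (1.37-fold) and 0.7 ± 0.11 in BERKO (1.62-fold), with adjusted p = 0.00162 and 2.19e-05. The WT call was lost under quantile normalization (-0.2, adjusted p = 0.134). NPC and mDPC arrays overlapped, the latter at 8.47 to 8.95, and the step between them did not pass in WT (0.14 ± 0.11, adjusted p = 0.4) or BERKO (0.01 ± 0.11, adjusted p = 0.968). Every MN array lay below every NPC and mDPC array, at 7.63 to 7.99. From mDPC to MN Dnmt3a fell by 0.85 ± 0.11 in WT (adjusted p = 4.72e-06) and by 0.8 ± 0.1 in BERKO (adjusted p = 2.49e-06). The entry of its antisense transcript Dnmt3aos, which also carries the name Gm10485, read 2.94 to 3.48 in all arrays.

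The TET genes split on leaving the stem cell state and then moved together. Tet1 read 13.96 and 13.91 in WT mESC and 14 and 14.2 in BERKO mESC, and 8.67 to 9.09 over the 8 NPC arrays. It fell 34.2-fold in WT (-5.09 ± 0.16, adjusted p = 6.27e-16) and 34.6-fold in BERKO (-5.11 ± 0.16, adjusted p = 5.98e-16). Tet2 read 11.7 and 11.6 in WT mESC and 11.72 and 11.96 in BERKO mESC, and 8.91 to 9.25 in NPC. Its fall was 5.8-fold in WT (-2.54 ± 0.11) and 6.4-fold in BERKO (-2.68 ± 0.11). In both genes the stem cell and neural arrays were far apart, and the fold was larger for Tet1.

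Tet3 went the other way. It read 4.99 and 5.12 in WT mESC and 5.43 and 5.24 in BERKO mESC, all below the negative controls, and 8.29 to 8.56 in NPC. The NPC level was at least 1.84-fold higher than the mESC level in WT and at least 1.75-fold higher in BERKO. The fitted differences were 3.33 ± 0.1 and 2.98 ± 0.1 (adjusted p = 1.58e-16 and 9.18e-16). Tet3 stayed above the negative controls in all 25 neural arrays.

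Past the NPC stage the 3 TET genes declined. Tet1 read 7.62 to 8.55 in mDPC and 6.59 to 7.35 in MN, Tet2 read 8.59 to 9.05 and 7.26 to 7.55, and Tet3 read 7.87 to 8.39 and 7.08 to 7.57. For each of the 3, every MN array lay below every mDPC array, and Tet1 was above the negative controls in only 5 of the 9 MN arrays. From mDPC to MN the differences in WT were -1.04 ± 0.16 for Tet1, -1.26 ± 0.11 for Tet2 and -1.0 ± 0.1 for Tet3, with adjusted p = 3.38e-05, 2.53e-08 and 8.53e-08. In BERKO they were -1.01 ± 0.15, -1.24 ± 0.1 and -0.6 ± 0.09, with adjusted p = 1.26e-05, 5.56e-09 and 1.36e-05. From NPC to mDPC Tet1 fell by 0.65 ± 0.16 in WT (adjusted p = 0.00467) and by 1.28 ± 0.16 in BERKO (adjusted p = 3.59e-06). Tet2 fell by 0.34 ± 0.11 in WT (adjusted p = 0.0296) and by 0.54 ± 0.11 in BERKO (adjusted p = 0.000833). The Tet2 call in WT was lost in a fit of the compared groups alone (adjusted p = 0.0617). It was also lost when all array clusters were tested in place of genes (adjusted p = 0.0581). Tet3 fell in BERKO (-0.38 ± 0.1, adjusted p = 0.00453) and did not pass in WT (-0.16 ± 0.1, adjusted p = 0.259). The BERKO call was lost without mDPC BERKO replicate 1 (-0.32, adjusted p = 0.0583), WT passed without mDPC WT replicate 1 (-0.32, adjusted p = 0.0334), and the difference between the genotypes did not pass (-0.22, adjusted p = 0.427). The WT calls at this step rest on single arrays: without NPC WT replicate 2 Tet1 gave -0.56 (adjusted p = 0.0605) and Tet2 gave -0.25 (adjusted p = 0.234). Without mDPC WT replicate 2 they gave -0.42 (adjusted p = 0.118) and -0.29 (adjusted p = 0.174), and without mDPC WT replicate 1 Tet2 gave -0.39 (adjusted p = 0.0536).

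**Figure D2:**
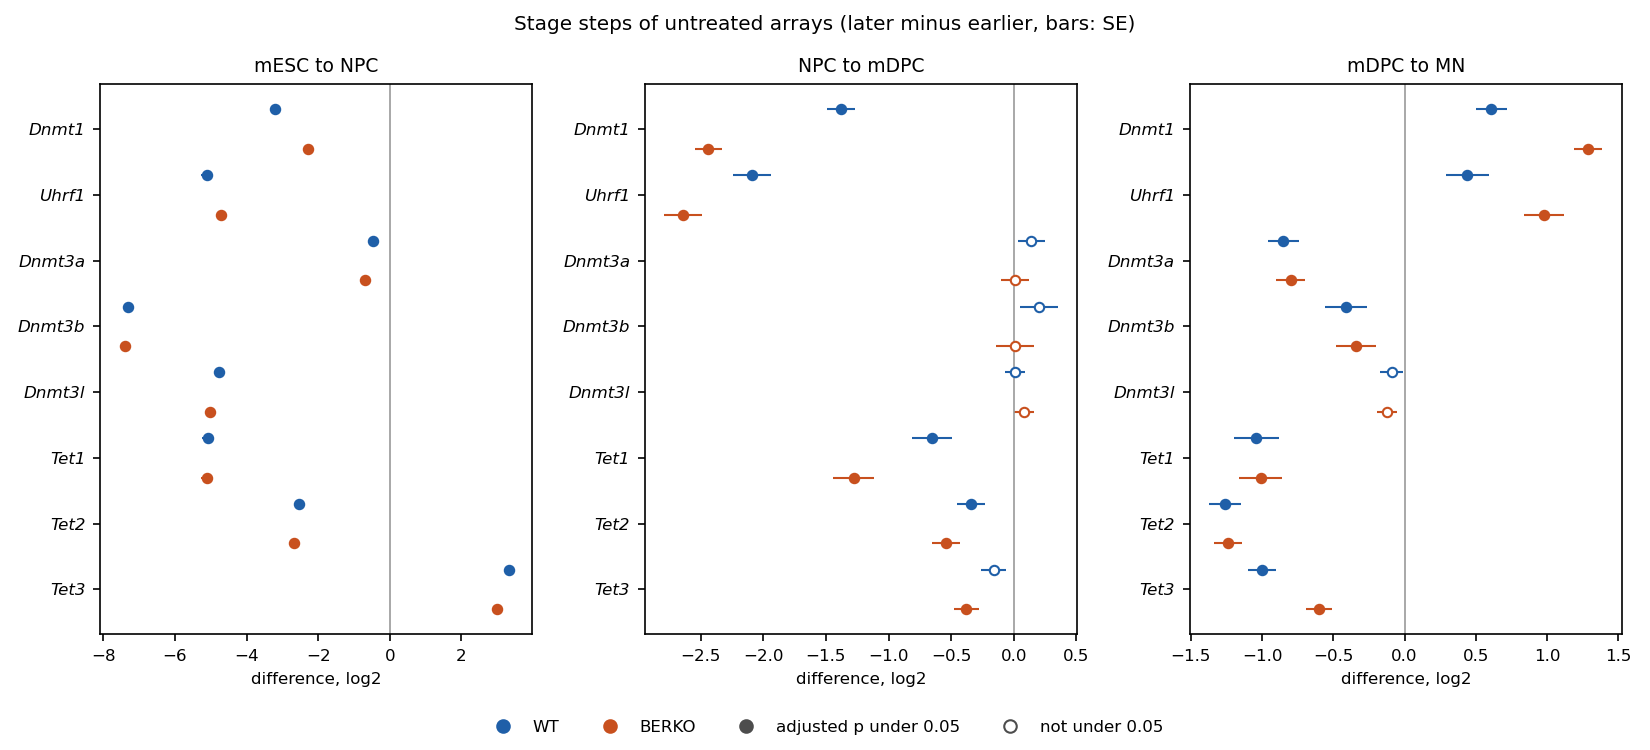
Difference between consecutive stages in untreated arrays (horizontal axis, log2, later minus earlier; each panel has its own scale) for each of the 8 genes (vertical axis), with SE bars, WT in blue and BERKO in orange; filled points have adjusted p under 0.05. From mESC to NPC Tet3 is the gene to the right of 0, and from mDPC to MN Dnmt1 and Uhrf1 are the genes to the right of 0.

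Counted over the 8 genes, the step from NPC to mDPC had 4 falls in WT and 5 in BERKO, with no rise. The share of all genes that fell at this step was 15.8% in WT and 18.9% in BERKO, and 14.6% and 16.5% rose. The step from mDPC to MN had 2 rises, of Dnmt1 and Uhrf1, and 5 falls in each genotype, against 18% of all genes higher and 24% lower in WT, and 20.1% higher and 30.8% lower in BERKO. Those 5 falls include Dnmt3b, whose differences of -0.41 ± 0.15 in WT (adjusted p = 0.0368) and -0.34 ± 0.14 in BERKO (adjusted p = 0.0453) lie wholly below the negative control level. The WT call was lost in 6 of 36 alternative settings, with adjusted p up to 0.184, and the BERKO call in 20 of 36, with adjusted p up to 0.277. From mESC straight to MN, 7 fell and Tet3 rose in each genotype, beside 38.4% of all genes lower and 31.1% higher in WT, and 42.7% and 30.8% in BERKO. For Tet3 over that whole course no fold can be bounded, since its means in untreated MN lie below the negative control level of the mESC arrays.

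The genotypes were then compared step by step. In the fit over all arrays Dnmt1 passed the test of the step difference between BERKO and WT, at each of the 3 steps, and no other member did. Its fall from mESC to NPC was smaller in BERKO by 0.92 ± 0.15 (adjusted p = 0.000555), at a step where 9.6% of all genes differed. Its fall from NPC to mDPC was larger in BERKO, with a difference of -1.06 ± 0.15 (adjusted p = 0.000143, 8.68% of all genes). Its rise from mDPC to MN was larger in BERKO by 0.68 ± 0.15 (adjusted p = 0.00351, 12.5% of all genes). Consecutive steps share their middle groups with opposite sign, so these 3 values are not independent. Uhrf1 gave 0.41 ± 0.21, -0.55 ± 0.21 and 0.54 ± 0.2 at the same steps, which did not pass (adjusted p = 0.274, 0.133 and 0.0927). Without mDPC WT replicate 1 the last 2 of these passed (-0.76, adjusted p = 0.0428, and 0.75, adjusted p = 0.0264). Tet3 at the last step gave 0.4 ± 0.13 (adjusted p = 0.0613). It passed without mDPC WT replicate 2 (0.55, adjusted p = 0.00971), without MN WT replicate 2 (0.48, adjusted p = 0.0496) and with a stricter filter on low values (adjusted p = 0.0438). At the first step Tet3 passed under quantile normalization (-0.46, adjusted p = 0.04), and Tet1 passed from NPC to mDPC without mDPC WT replicate 2 (-0.86, adjusted p = 0.0328).

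Within stages, no member differed between BERKO and WT mESC, where 4.21% of all genes did. Tet3 had the smallest adjusted p there (0.28 ± 0.1, adjusted p = 0.125), and 1 member had an unadjusted p under 0.05. The 95% interval of the Dnmt1 difference was -0.36 to 0.09, and that of Uhrf1 -0.4 to 0.22. In untreated NPC, Dnmt1 was 1.73-fold higher in BERKO (0.79 ± 0.11, adjusted p = 4.1e-05) and was the only member to pass, beside 15.7% of all genes. In LY3201-treated NPC it was 1.45-fold higher (0.54 ± 0.11, adjusted p = 0.00241, 10.4% of all genes), with BERKO arrays at 11.15 and 11.12 and WT arrays at 10.72 and 10.48. The untreated call was lost by a margin in a fit of the compared groups alone (adjusted p = 0.0501), and the treated one there (adjusted p = 0.0545) and without NPC WT+LY3201 replicate 2 (0.42, adjusted p = 0.0557). BERKO arrays were above WT arrays in NPC whether or not LY3201 was added.

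In mDPC the order of Dnmt1 was the reverse. No member passed in untreated mDPC, where 13.8% of all genes did and 3 members had an unadjusted p under 0.05. Dnmt1 gave -0.27 ± 0.11 (adjusted p = 0.112), Tet1 -0.48 ± 0.16 (adjusted p = 0.0572) and Tet3 -0.29 ± 0.1 (adjusted p = 0.0543). Without mDPC WT replicate 2, Tet1 (-0.72, adjusted p = 0.0158) and Tet3 (-0.45, adjusted p = 0.00828) passed, and under quantile normalization Dnmt1 (-0.36, adjusted p = 0.0228), Tet1 (-0.53, adjusted p = 0.0378) and Tet3 (-0.34, adjusted p = 0.0225) did. In LY3201-treated mDPC 15.3% of all genes passed. Tet1 did not, but with a stricter filter on low values it was lower in BERKO (-0.48, adjusted p = 0.0404). Dnmt1 passed as lower in BERKO (-0.46 ± 0.11, adjusted p = 0.00537), with 9.24 and 9.12 against 9.64 and 9.66 in WT. That call was lost without mDPC BERKO+LY3201 replicate 2 (-0.4, adjusted p = 0.0611) and in a fit of the compared groups alone (adjusted p = 0.0577). Dnmt3b also passed there (-0.48 ± 0.15, adjusted p = 0.0358), below the negative control level, and was lost without mDPC WT+LY3201 replicate 1 (-0.32, adjusted p = 0.335), without mDPC BERKO+LY3201 replicate 1 (-0.55, adjusted p = 0.0731) and without mDPC BERKO+LY3201 replicate 2 (-0.42, adjusted p = 0.182).

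At the MN stage Dnmt1 was again higher in untreated BERKO, and Tet1 was lower. Dnmt1 differed by 0.41 ± 0.1 (adjusted p = 0.00517), a 1.33-fold difference with no overlap between the 3 BERKO and 2 WT arrays, at a comparison where 20.8% of all genes passed. Tet1 read 7.0 and 7.31 in WT against 6.75, 6.65 and 6.69 in BERKO, a difference of -0.46 ± 0.15 (adjusted p = 0.0351). The Tet1 call was lost without MN WT replicate 2 (-0.3, adjusted p = 0.339), without MN BERKO replicate 2 (-0.44, adjusted p = 0.0866) and without MN BERKO replicate 3 (-0.45, adjusted p = 0.077). Among LY3201-treated MN arrays, 19.6% of all genes differed and Dnmt1 did not pass (-0.16 ± 0.11, adjusted p = 0.353). Tet1 did not pass either, but with a stricter filter on low values it was lower in BERKO (-0.45, adjusted p = 0.045). There Dnmt3b was lower in BERKO (-0.92 ± 0.15, adjusted p = 0.000199), below the negative control level in all 4 arrays. Tet3 was 1.35-fold higher in BERKO (0.43 ± 0.1, adjusted p = 0.00386), with 7.53 and 7.57 against 7.08 and 7.16. In a fit of the compared groups alone neither held (adjusted p = 0.105 and 0.0786).

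**Figure D3:**
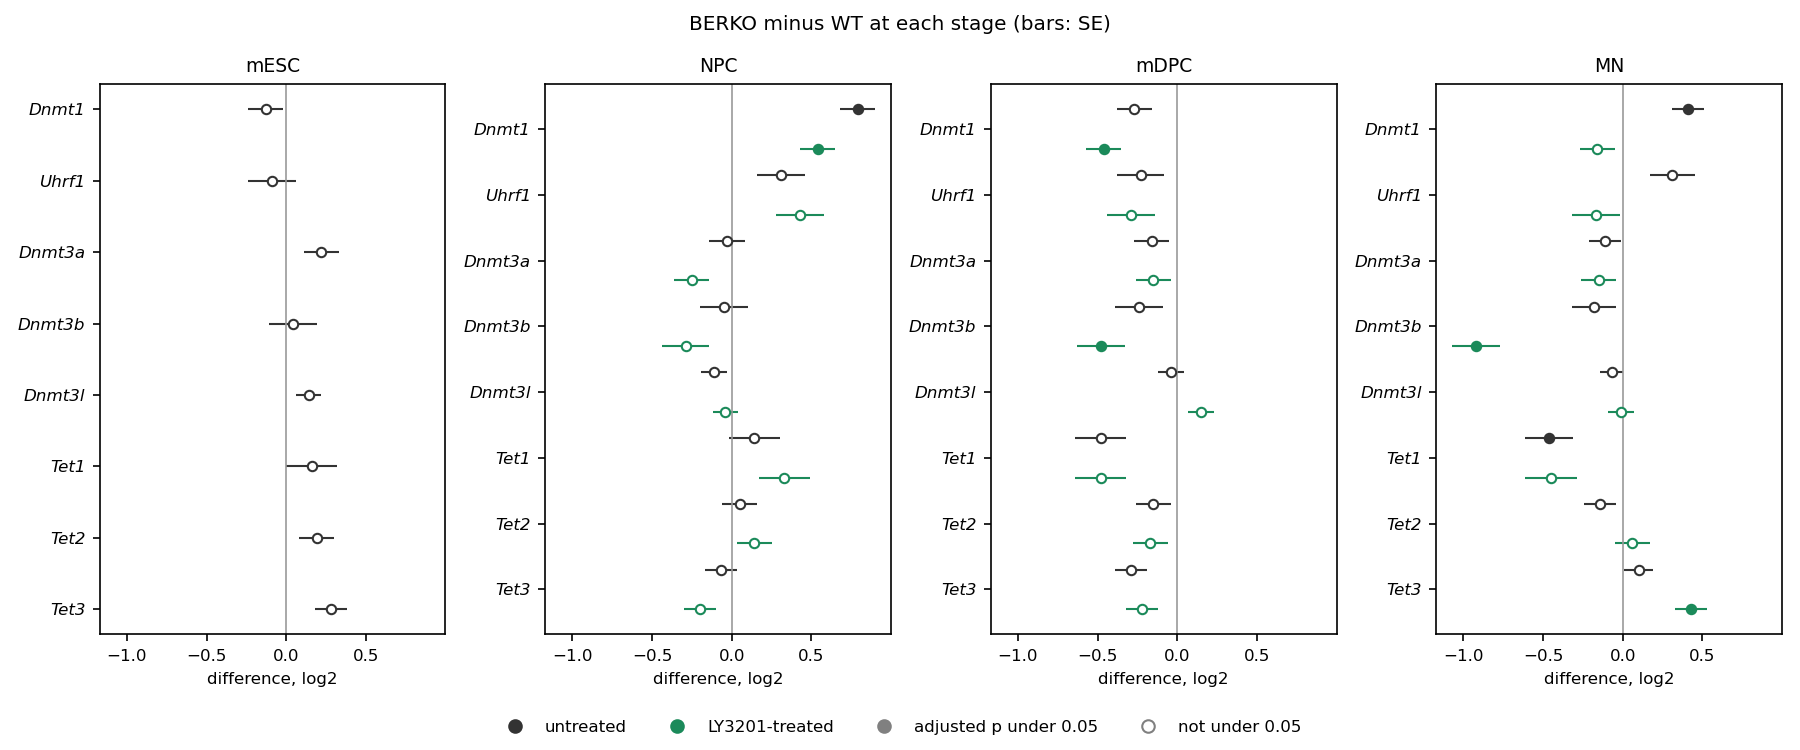
BERKO minus WT difference (horizontal axis, log2) of each of the 8 genes (vertical axis) at the 4 stages, with SE bars, untreated in dark grey and LY3201-treated in green; filled points have adjusted p under 0.05. Dnmt1 lies to the right of 0 in NPC, to the left in mDPC, and on both sides at the MN stage (0.41 untreated, -0.16 treated).

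The cultures also differed in other cell markers by genotype. Of 8 mesenchymal marker genes, 6 were lower in untreated BERKO NPC, none differed in untreated mDPC and all 8 were lower in untreated BERKO MN. Their mean log2 value was 7.04 and 7.05 in WT NPC arrays against 5.03 and 5.16 in BERKO, and 7.12 and 7.14 in WT MN against 4.87 to 5.07 in BERKO. Below the negative controls in both groups were 3 of the 6 mesenchymal calls in NPC and 3 of the 8 in MN. Of 8 oligodendrocyte genes, 4 were higher in untreated BERKO mDPC, where array means were 6.79 and 6.68 against 6.0 and 6.01 in WT, and 6.94 and 6.86 against 6.12 and 6.03 with LY3201. In untreated BERKO NPC 2 of the 8 were higher (6.64 and 6.56 against 6.22 and 6.17). Genes below the negative controls in both groups made up 3 of the 4 calls in untreated mDPC and 1 of the 2 in NPC. In untreated MN 5 of the 8 oligodendrocyte genes passed, 3 as lower and 1 as higher in BERKO, and 1 below the controls in both groups. Array means there were 7.79 to 8.26 in BERKO against 8.63 and 8.18 in WT. Of 10 neuron genes, 1 was lower in untreated BERKO mDPC, and it lay below the controls in both groups. All 10 neuron genes were lower in untreated BERKO MN, with array means of 7.11 and 8.79 in WT against 6.45 to 6.65 in BERKO. Below the controls in both groups were 3 of those 10. Astrocyte genes passed in both directions. In untreated NPC 3 of the 8 were higher and 2 lower in BERKO. In untreated mDPC 2 were higher and 1 lower, and in untreated MN 3 were higher and 1 lower. At each of the latter stages 1 more passed below the controls in both groups. Within MN, the pair of arrays with the highest neuron gene mean, WT replicate 2 at 8.79 and WT+LY3201 replicate 2 at 7.94, had the highest Tet1 values, 7.31 and 7.35. The part of these markers in the Dnmt1, Tet1 and Tet3 differences was not tested, and in such bulk samples fewer cells of a type cannot be told apart from less RNA per cell. Of 10 pluripotency genes, all fell from mESC to NPC in both genotypes, and their array means were 3.87 to 4.33 in the neural arrays. Markers did not bear out the mDPC and MN labels in full. The array means of 8 midbrain dopaminergic genes were 4.41 to 4.57 in mDPC against 4.56 to 4.63 in mESC. All 8 lay below the controls in untreated mDPC of both genotypes. Means of 9 neural progenitor genes were 10.09 to 10.62 in mDPC, and those of 8 astrocyte genes 11.81 to 12.04. The dopamine enzyme gene Th read 3.19 to 3.49 in the 9 MN arrays. From mESC to MN all 8 midbrain genes lay below the controls in both stages in WT. In BERKO 7 did, and 1 rose. En2 of that list read 4.59 to 5.03 in mESC and 5.93 to 7.11 in MN. Of 10 neuron genes 6 rose from mESC to MN in WT and 2 in BERKO, while 6 and 8 of 8 astrocyte genes rose. Among those rises, 2 of neuron genes in WT and 2 of astrocyte genes in BERKO lay below the controls in both stages. From mDPC to MN, leaving out genes below the controls in both stages, 6 neuron genes rose in WT and 3 in BERKO, and 1 fell in each.

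LY3201 changed few genes in NPC and mDPC, and no member was among them. In NPC no member passed in WT, where 0.00453% of all genes did, and none in BERKO, where 0% did; 0 and 1 members had an unadjusted p under 0.05. In BERKO NPC that member was Dnmt1 (-0.37 ± 0.11, adjusted p = 0.335). In mDPC no member passed in WT (0.0635% of all genes) or in BERKO (0.113%), with unadjusted p under 0.05 for 3 and 0 members. Dnmt1 in WT mDPC gave 0.31 ± 0.11 with a 95% interval of 0.08 to 0.54 (adjusted p = 0.274).

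At the MN stage 2 members passed in WT and none in BERKO. Uhrf1 read 5.94 and 5.88 in untreated WT MN and 6.32 and 6.74 with LY3201, a difference of 0.62 ± 0.15 (adjusted p = 0.0379). Dnmt3b read 4.22 and 4.26 against 4.71 and 5.37, a difference of 0.8 ± 0.15 (adjusted p = 0.0129). Treated arrays were above untreated ones for both genes, all below the negative control level, so the fold is not given. The share of all genes that passed was 1.83%. The 2 treated arrays also differed in other markers, with neuron gene means of 6.97 and 7.94 and mesenchymal gene means of 6.93 and 7.74, whose part in these differences was not tested. Dnmt1 gave 0.39 ± 0.11 (adjusted p = 0.0759), with 10.34 in both treated arrays. Without MN WT+LY3201 replicate 2 the Uhrf1 difference was 0.42 (adjusted p = 0.283) and that of Dnmt3b 0.48 (adjusted p = 0.119), and without MN WT replicate 2 they were 0.59 (adjusted p = 0.163) and 0.83 (adjusted p = 0.0563). Uhrf1 was also lost without MN WT replicate 1 (0.65, adjusted p = 0.0859), and in a fit of the compared groups alone neither gene passed (adjusted p = 0.473 and 0.481). In all, the Uhrf1 call was lost in 9 of 36 alternative settings and the Dnmt3b call in 3. For Uhrf1 these included quantile normalization (0.58, adjusted p = 0.0621) and testing all array clusters in place of genes (adjusted p = 0.0758). In BERKO MN, 0.344% of all genes passed, no member did, and 1 had an unadjusted p under 0.05, Tet3 (0.22 ± 0.09, adjusted p = 0.347).

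The effects of LY3201 were also set against each other between genotypes. No member's effect differed between BERKO and WT in NPC (0.499% of all genes), in mDPC (0%) or at the MN stage (0.63%), with unadjusted p under 0.05 for 0, 0 and 4 members. At the MN stage the differences were -0.57 ± 0.15 for Dnmt1 (adjusted p = 0.082), -0.75 ± 0.2 for Dnmt3b (adjusted p = 0.0982) -0.48 ± 0.2 for Uhrf1 (adjusted p = 0.284) and 0.33 ± 0.13 for Tet3 (adjusted p = 0.261). Dnmt3b passed when MN WT+LY3201 replicate 1 was left out (-1.08, adjusted p = 0.003). The rise of Uhrf1 and Dnmt3b in WT MN was therefore not shown to differ from the response in BERKO MN.

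**Figure D4:**
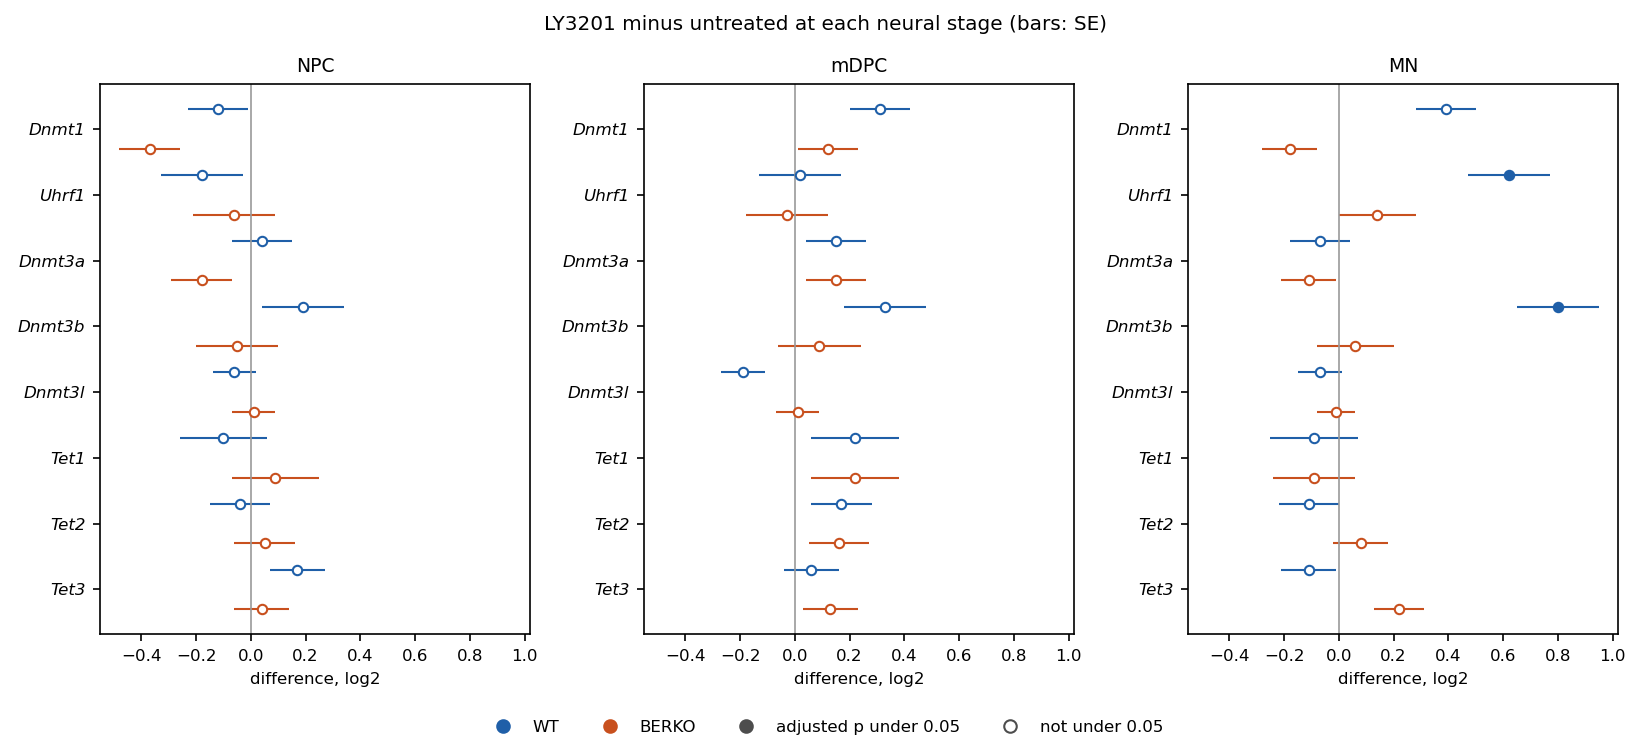
LY3201 minus untreated difference (horizontal axis, log2) of each of the 8 genes (vertical axis) at the 3 neural stages, with SE bars, WT in blue and BERKO in orange; filled points have adjusted p under 0.05. The 2 filled points are Uhrf1 (0.62) and Dnmt3b (0.8) in WT at the MN stage.

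The maintenance pair moved with genes of DNA replication. Of 23 S-phase genes, which load and fire replication origins or supply nucleotides, 21 were tested. All 21 fell from mESC to NPC in WT and 20 did in BERKO, with medians of -3.58 and -3.28. Below the negative controls in both stages were 1 of the 21 in WT and 2 in BERKO. All 21 fell again from NPC to mDPC in both genotypes (medians -1.24 and -1.89), and 13 in WT and 19 in BERKO rose from mDPC to MN (medians 0.4 and 1.0), where the median of all genes was -0.1 and -0.14. At the NPC to mDPC step 12 of the 21 lay below the negative controls in both groups in WT and 9 in BERKO, as did 7 of the 13 rises to MN in WT and 11 of the 19 in BERKO, so that the medians rest in part on values with no measured fold. By genotype, 12 were higher and 1 lower in untreated BERKO NPC, 10 were lower and none higher in untreated BERKO mDPC, and 11 were higher and none lower in untreated BERKO MN. Of these calls, 3 of 13 in NPC, 7 of 10 in mDPC and 4 of 11 in MN were of genes below the negative controls in both groups. In mESC none differed. The leading genes in NPC were Rrm2 (0.87 ± 0.15), Rrm1 (0.8 ± 0.09), Mcm5 (0.72 ± 0.14) and Mcm4 (0.6 ± 0.09), all above the controls. Those in mDPC were Mcm6, Mcm3, Mcm2 and Mcm4, which help unwind DNA at origins. Mcm3 and Mcm2 lay below the controls in all 8 mDPC arrays, at 5.29 to 6.57 and 5.21 to 6.56. Mcm4 was at least 1.67-fold and Mcm6 at least 1.16-fold higher in WT, with Mcm6 above the controls in 1 of the 2 WT arrays. With LY3201, 10 of the 21 passed as higher in WT MN, where 1.83% of all genes passed in either direction. Mcm2 led (at least 1.74-fold, adjusted p = 0.00582), and 4 of the 10 lay below the controls in both groups. None was higher in BERKO MN, where 0.344% of all genes passed. The effect itself differed between genotypes for 2 of the 21, beside 0.63% of all genes. Whether these list calls hold in the alternative settings used for the members was not tested.

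The step differences showed the same order. The S-phase list had 7 genes higher, then 14 lower, then 14 higher in the BERKO minus WT difference of the 3 consecutive steps, where Dnmt1 gave 0.92, -1.06 and 0.68. Mitosis genes, 11 of 12 tested, were all higher in untreated BERKO NPC (median 0.96), 8 were lower in mDPC (median -0.96) and 10 were higher in MN (median 0.96); 5 of the 8 in mDPC and 1 in each of the others lay below the controls in both groups. Some mitosis genes fell from NPC to mDPC much further than Dnmt1, led in WT by Mki67 (-7.11 ± 0.2), Plk1 (at least 34-fold higher in NPC), Top2a (-5.94 ± 0.12) and Kif11 (-5.77 ± 0.11). How much of the Dnmt1 and Uhrf1 differences goes with the number of dividing cells was not tested.

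**Figure D5:**
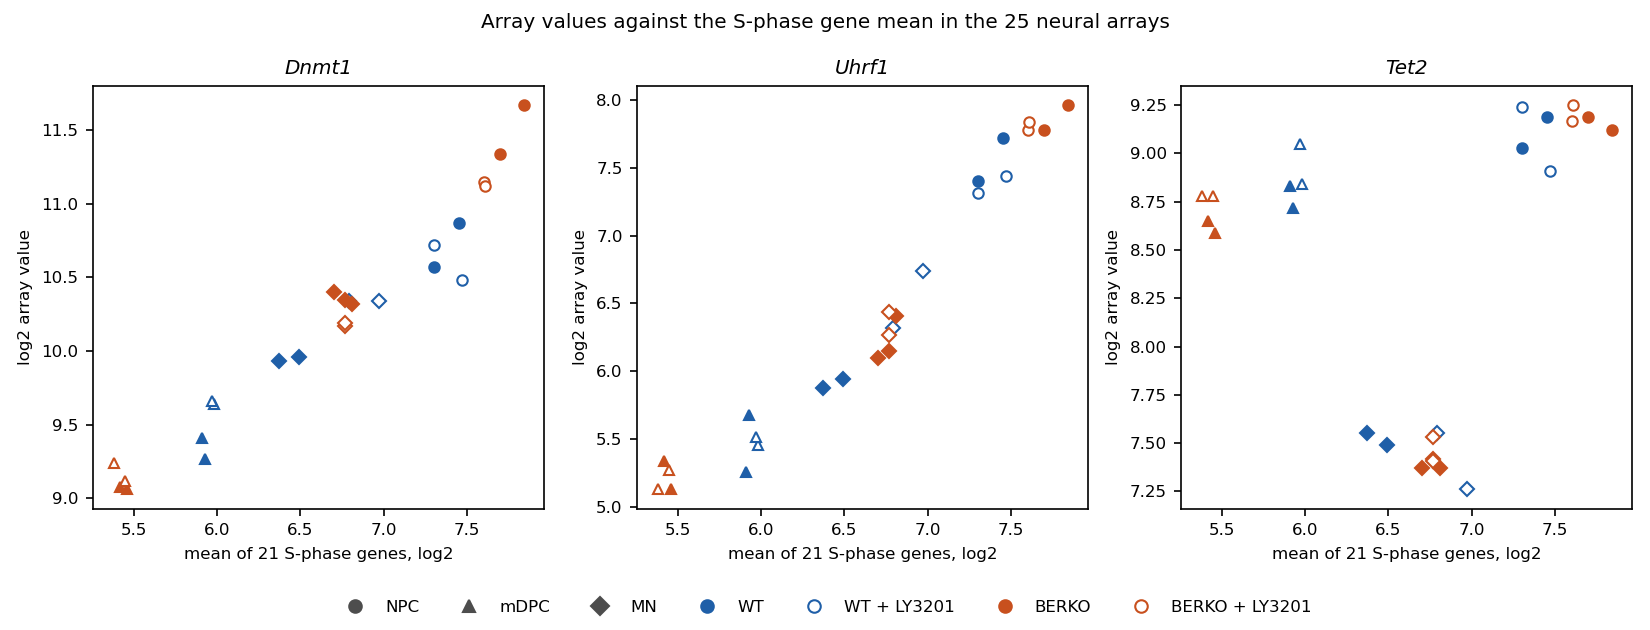
Log2 array value of Dnmt1, Uhrf1 and Tet2 (vertical axes) against the mean log2 value of 21 S-phase genes (horizontal axis) in the 25 neural arrays; circles are NPC, triangles mDPC, diamonds MN, blue WT, orange BERKO, and open points LY3201-treated. Dnmt1 and Uhrf1 rise with the S-phase mean across the stages, while Tet2 in MN (7.26 to 7.55) lies below its mDPC values (8.59 to 9.05) although the S-phase mean is higher in MN (6.37 to 6.97) than in mDPC (5.38 to 5.98).

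Among the 12 neural groups, the members other than Dnmt3b and Dnmt3l fell into a pair and a set. Those 2 genes, below the negative controls in all neural arrays, correlated at -0.047 with each other and at no more than 0.531 with any member. Dnmt1 and Uhrf1 correlated at r = 0.962 over the group means. With the TET genes their r was lower, 0.17 and 0.317 for Tet2, 0.182 and 0.336 for Tet3, and 0.387 and 0.516 for Tet1. Uhrf1 lay below the negative controls in all mDPC and MN groups, so its r values rest in large part on such values. Tet1 correlated with Tet2 at 0.958 and with Tet3 at 0.91, and Tet2 with Tet3 at 0.966. Dnmt3a correlated with Tet2 at 0.906, with Tet3 at 0.865 and with Tet1 at 0.799. With the 2 mESC groups included, Tet1 and Tet3 had the opposite relation (-0.713), since the mESC groups stand apart from all others. These are descriptions of group means that share stages, and no test was made of them.

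The genes with patterns most like each member were ranked by Pearson's r over all 14 group means. For Dnmt1 they were Gm17052 (0.9970), Ticrr (0.9963) and Cdc45 (0.9952), and for Uhrf1 Gm5648 (0.9989), Cdca5 (0.9984) and Trip13 (0.9983). Ticrr and Cdc45 act at replication origins, and Cdca5 holds sister chromatids together. For Dnmt3b they were the pluripotency factor Pou5f1 (0.9984), Ddx55 (0.9982) and Sall4 (0.9981), and for Dnmt3l Mylpf (0.9997), Mcf2 (0.9996) and Tex14 (0.9996). With the mESC groups left out, r was 0.983 to 0.987 for the 3 nearest Dnmt1, 0.992 to 0.993 for Uhrf1, 0.838 to 0.938 for Dnmt3b and 0.637 to 0.813 for Dnmt3l. For Tet1 the nearest were Ints3, Pelp1 and Tti1 (0.9947 to 0.9955), for Tet2 Dcp1a, Gm9755 and Smarcad1 (0.9936 to 0.9951), for Tet3 the cell cycle inhibitor Cdkn1b, Rnf122 and Gdpd1 (0.9904 to 0.9916), and for Dnmt3a Clk2, Zc3h13 and Brd2 (0.9823 to 0.9898).

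Partners of the maintenance reaction fell with it on leaving the stem cell state. Of 10 such genes, 9 fell and 1 rose from mESC to NPC in each genotype, with medians of -3.36 in WT and -3.14 in BERKO. In each genotype 1 of the 10 lay below the negative controls in both stages. The leading falls in WT were those of the chromatin remodeler Hells, the imprint protector Zfp57, Cdca7, which activates Hells, and the replication ligase Lig1 (-4.2 ± 0.1). Hells, Zfp57 and Cdca7 lay below the negative controls in NPC, and their mESC levels were at least 65.6-fold, 41.1-fold and 5.11-fold higher. In untreated BERKO NPC, 3 of the 10 were higher, Lig1 (0.64 ± 0.1, adjusted p = 0.000227), the replication clamp Pcna (0.55 ± 0.09, adjusted p = 0.000342) and Trim28 (0.34 ± 0.1, adjusted p = 0.026). In untreated BERKO mDPC, Pcna (-0.44 ± 0.09) and Trim28 (-0.36 ± 0.1) were lower, and Hells passed below the negative controls in both groups. In mESC Dppa3, a protein that keeps Uhrf1 off chromatin, passed as higher in BERKO (adjusted p = 8.45e-06) at 3.9 to 5.83, below the negative control level in every array.

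Among 12 regulators of the Dnmt3 genes or partners in their silencing complexes, 9 fell and 2 rose from mESC to NPC in WT, and 8 fell and 3 rose in BERKO. Below the negative controls in both stages were 1 of the 11 calls in WT and 0 of the 11 in BERKO. The leading falls in WT, each to below the negative controls, were of Zfp42 (at least 12.3-fold), Prdm14, a repressor of Dnmt3b in stem cells (at least 3.98-fold), L3mbtl2 (at least 11.8-fold) and Pcgf6 (at least 6.23-fold). In the supply of the methyl donor, 8 of 9 genes tested fell at that step in each genotype, with medians of -2.62 and -2.32. In each genotype 1 of the 8 lay below the controls in both stages. Shmt1 (at least 3.83-fold), Mthfd1 (-4.44 ± 0.07), Mtrr (at least 5.2-fold) and Ahcy (-3.24 ± 0.1) led in WT, enzymes of the folate and methionine cycles; Shmt1 and Mtrr fell to below the negative controls.

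Germline genes held silent by promoter methylation are a common readout of the methylation machinery. Of 18 such genes, listed with an earlier result of these data in view, 15 were tested. Most of them passed the filter on low values through mESC, where they are high, so the counts are a description and no support for a direction. In mESC, where none of the 8 members differed by genotype, 7 of the 15 were higher in BERKO and none lower, 3 of the 7 below the negative controls in all 4 arrays. The leading genes were Rhox5 (1.08 ± 0.25, adjusted p = 0.0173), Sycp1 (0.81 ± 0.1, adjusted p = 9.32e-05), Ddx4 (0.59 ± 0.12, adjusted p = 0.00844) and Syce1 (adjusted p = 0.00225), the last at 5.92 to 6.64 and so below the controls. In the neural arrays all 15 lay below the negative controls, where no genotype difference could be measured. The mean of the 15 was 6.66 and 6.54 in the WT mESC arrays, 7.05 and 6.81 in the BERKO mESC arrays, which may come from 1 culture, and 3.4 to 3.73 in the neural arrays.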

How the data were processed

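RNA was hybridised to 29 Clariom D mouse arrays, 150 ng of total RNA each. As some arrays share a title number, the number of separate cultures is not known. The deposited values are log2 signals that the authors made with SST-RMA in Expression Console 1.4, per the submitters' processing notes and the labels; the log base was read from the range of the values. The build of the array's clusters is not given in the sources used here. Of 72688 entries, 30604 clusters carry 1 gene symbol (2146 carry several, and were not used), 827 symbols were updated through RefSeq, and the cluster with the highest mean stood for each gene. Genes above the array median in at least 2 arrays were kept. One limma (3.58.1, R 4.3.3) model with a mean per group was fitted over all arrays, with 27 contrasts and Benjamini-Hochberg adjustment over the 22063 genes at 0.05, and was tested on simulated data. The number of arrays limits precision, with 15 residual degrees of freedom; the series design calls the replicates biological. Values carry ± SE of the fit. Genes of a list were named as the up to 4 passing ones with the largest difference, and 3 nearest genes per member by correlation. The members, lists and tests were chosen with earlier results of these data known. Alternatives covered the filter, quantile normalization, the prior, the compared groups alone, each array left out, arrays with a shared title number averaged, and all clusters in place of genes.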

Additional observations from a re-analysis of the deposited data

Results flagged for a closer look

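Dnmt1 was singled out because its change between stages differed between the genotypes by a test of the difference itself (limma, adjusted over all genes). Leaving mESC for NPC, the BERKO minus WT difference was 0.92. It was -1.06 at the next step, into mDPC, and 0.68 at the last, into MN. The steps share their middle groups, so a high NPC or low mDPC value enters 2 of them with opposite sign.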

How the results depend on the processing

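Of 216 tests of the members, 68 passed, of which 52 held under all 36 alternatives and 16 were lost under at least 1. No passing difference changed sign. The 68 pool comparisons in which very different shares of all genes passed, each given above with its comparison. The counts of members that passed moved by more than 1.5 times as follows; some other counts moved by 1, and the mDPC to MN count in WT by up to 2. With a stricter filter, the mDPC to MN step difference went from 1 to 2 and untreated mDPC by genotype from 0 to 2. Quantile normalization moved the mESC to NPC step difference from 1 to 2, untreated mDPC by genotype from 0 to 3, and treated mDPC by genotype and LY3201 in WT MN each from 2 to 1. A trended, robust prior moved untreated mDPC by genotype from 0 to 1. In fits of the compared groups alone, genotype counts fell from 1 to 0 in NPC, untreated or treated, from 2 to 1 in untreated MN, and from 2 to 0 in treated mDPC and treated MN, and LY3201 in WT MN fell from 2 to 0; these fits have fewer samples. Averaging arrays with a shared title number left 1 for LY3201 in WT MN, and using all clusters left 1 there, in untreated MN and in treated mDPC by genotype. Leaving out 1 array gave ranges of 1 to 2 for untreated MN by genotype, 0 to 2 for treated NPC and untreated mDPC, 0 to 3 for treated mDPC and for LY3201 in WT MN, 0 to 1 for the LY3201 effect difference in MN, 2 to 4 for NPC to mDPC in WT, and 1 to 2 for the step differences of NPC to mDPC and mDPC to MN. Apart from the smaller fits, the cause was not tested. Uhrf1 in mDPC and MN, Dnmt3b and Dnmt3l in neural cells and Tet3 in mESC lay below the negative controls, which limits their differences. No paired analysis was possible because the groups compared share fewer than 2 title numbers; a single number recurs between groups, in 1 LY3201-treated MN array of each genotype.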

Other observations

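Genes around the TET reaction moved in different directions from mESC to NPC. Of 8 partners and cosubstrate genes tested, 3 rose and 3 fell in WT, and 4 rose and 4 fell in BERKO. Genes below the negative controls in both stages made up 2 of the 6 calls in WT and 3 of the 8 in BERKO. Sall4 fell at least 63.6-fold in WT, to below the negative controls. Idh1, the cytosolic source of the TET cosubstrate, rose by 2.25 ± 0.13, while the mitochondrial Idh2 fell by 2.34 ± 0.11 and rose again by 1.86 ± 0.11 from mDPC to MN. Of 10 genes for repair of oxidised bases, 1 rose and 7 fell in WT, and 2 rose and 7 fell in BERKO. Here 4 of the 8 calls in WT and 5 of the 9 in BERKO were of genes below the controls in both stages. In WT Gadd45g rose at least 8.22-fold from below the controls, the base excision enzyme Apex1 fell by 3.5 ± 0.11 and Gadd45b fell at least 2.39-fold to below them. Of 6 methylation-binding genes, 4 rose in each genotype, led in WT by Zbtb33 (at least 1.62-fold, from below the controls). Counting falls as well, 4 of the 6 calls in WT and 3 of the 5 in BERKO lay below the controls in both stages. Mbd4, a repair glycosylase, passed as lower in WT NPC, but lay below the negative controls in both stages, at 6.95 to 7.1 in mESC and 5.35 to 5.63 in NPC. These lists were chosen with earlier results of these data known.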
